A study of Mus musculus with 4 samples.

Results

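The Zic genes described here are Zic1, Zic2, Zic4 and Zic5, found by their symbols among the 32285 genes of each count matrix, and all 4 members were present under 1 identifier each. They encode transcription factors with C2H2 zinc fingers related to those of the GLI proteins, the nuclear effectors of Hedgehog signalling. In vertebrates they lie as divergently transcribed neighbours, Zic1 beside Zic4 and Zic2 beside Zic5. They are best known from the dorsal neural tube, the neural crest and the dorsal somites, where they act early in patterning, and loss of ZIC2 in humans is a known cause of a failure of the forebrain to divide.

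RNA of single cells was measured with a droplet 3′ assay in mouse embryos at E9.5. Both genotypes carried Tbx1Cre/+, a Cre knock-in that also leaves 1 working copy of Tbx1, and GFP F/+, a reporter switched on by Cre, on a background labelled outbred SwissWebster, which the study's methods describe as kept mixed with C57BL/6. The cHet embryos were Kmt2d F/+ and the cKO embryos were Kmt2d F/F. Kmt2d encodes a histone H3 lysine 4 methyltransferase. The tissue was the pharyngeal region and heart, from which living GFP+ cells were sorted, so the data hold cells of the Tbx1Cre lineage. Each genotype had 2 libraries. Libraries of Rep1 (Next GEM) were each made from 4 pooled embryos, those of Rep2 (GEM-X) from 3. The embryos of 1 pool cannot be told apart, so the library is the replicate. By the study's somite counts, the cKO embryos of Rep2 had at least as many somites as any cHet embryo of Rep2. In Rep1 the cKO range lay within the cHet range. A part of stage in the genotype differences was not tested.

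The cells kept numbered 5869 in cHet Rep1, 6291 in cKO Rep1, 9350 in cHet Rep2 and 11938 in cKO Rep2, and the median cell held between 17240.5 and 22972 unique molecular identifiers (UMIs, counted RNA molecules). The Rep1 libraries shared 12 cell barcodes and the Rep2 libraries shared 46. In cHet Rep1 60.0% of all UMIs lay in cells that were kept, against 86.1% to 91.6% in the other libraries. Clustering gave 21 cell groups, of which 13 were named from markers and 8 are called by their leading genes. The 4 Zic genes took no part in the clustering. Kmt2d stood at 19.1 and 21.3 normalised CPM (counts scaled to a library of 1000000) in cHet Rep1 and Rep2 and at 17.3 and 18.97 CPM in cKO. Reads of a 3′ assay start from the end of the transcript and need not cover the deleted exons, so these values did not check the genotype.

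In GENCODE M21 on GRCm38, Zic1 (ENSMUSG00000032368) lies on the minus strand of chromosome 9 from 91358058 to 91365810, and Zic4 (ENSMUSG00000036972) on the plus strand from 91362413 to 91389348. Their gene models overlap by 3398 bases through 1 of the 12 annotated Zic4 transcripts, which starts within Zic1. The assay marks the strand of each read, which keeps the overlapping stretch apart. Zic5 (ENSMUSG00000041703) lies on the minus strand of chromosome 14 from 122456795 to 122465677, and Zic2 (ENSMUSG00000061524) on the plus strand from 122475435 to 122479852. No annotated bases are shared by Zic2 and Zic5, whose models are 9757 bases apart.

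The stretches before the RefSeq starts of 3 members are shown because the neighbours of each pair were detected in the same groups of cells. Each runs 5′ to 3′ on the strand of its gene over the 250 bases before the start (GRCm38.p6), and capitals mark CCAAT or its reverse complement ATTGG and the palindrome CACGTG. They cover chr9:91365769-91366018 on the minus strand for Zic1, chr9:91368722-91368971 on the plus strand for Zic4, and chr14:122465659-122465908 on the minus strand for Zic5.
Zic1: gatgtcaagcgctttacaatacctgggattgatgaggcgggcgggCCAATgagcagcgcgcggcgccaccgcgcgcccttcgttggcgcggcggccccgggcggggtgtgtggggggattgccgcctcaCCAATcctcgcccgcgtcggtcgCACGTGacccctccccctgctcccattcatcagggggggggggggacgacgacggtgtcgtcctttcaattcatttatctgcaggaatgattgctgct
Zic4: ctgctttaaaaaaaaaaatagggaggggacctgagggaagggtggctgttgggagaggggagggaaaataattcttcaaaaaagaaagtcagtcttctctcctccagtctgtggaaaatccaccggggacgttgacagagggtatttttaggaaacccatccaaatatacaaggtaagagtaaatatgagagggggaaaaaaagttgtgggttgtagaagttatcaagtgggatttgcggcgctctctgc
Zic5: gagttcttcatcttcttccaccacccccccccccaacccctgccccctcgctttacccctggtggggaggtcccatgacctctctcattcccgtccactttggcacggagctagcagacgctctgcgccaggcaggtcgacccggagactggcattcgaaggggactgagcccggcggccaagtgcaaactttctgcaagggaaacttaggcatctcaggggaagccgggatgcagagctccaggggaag
The Zic1 stretch held 27 CG dinucleotides, the Zic5 stretch 11 and the Zic4 stretch 4, against a median of 6 over 27025 promoters of the same length. CCAAT occurred at 2 places before Zic1 and CACGTG at 1, and neither occurred before Zic4 or Zic5. On either strand, 34.5% of all promoters held CCAAT and 6.05% held CACGTG. The letters GACCACCCA, the core of the GLI binding site, were in none of the 3 stretches and in 0.211% of all promoters.

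All 4 members reached their highest level in 1 group, named cranial mesenchyme-like from Twist1, Prrx1, Alx4, Msx1 and Msx2, 5 of its 9 markers. These 3442 cells held 63.7% of the Zic1 UMIs, 62.7% of the Zic4 UMIs, 40.4% of the Zic2 UMIs and 40.3% of the Zic5 UMIs. Levels are given as CPM of the UMIs summed over a group in 1 library, with cHet before cKO and Rep1 before Rep2. In a 3′ assay 1 molecule gives 1 count whatever its length, so CPM was not divided by length. Capture can still differ between genes, and levels are compared between groups rather than between genes.

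Zic1, which acts in the dorsal neural tube and the somites, stood at 159, 210, 247 and 286 CPM in the cranial mesenchyme-like cells. The paraxial mesoderm-like cells (512 cells, named from 5 of 8 markers with Pax3, Tcf15 and Meox2 among the leading genes) came next, at 107, 88.6, 204 and 164 CPM. The group led by Vtn, Cthrc1 and Sparcl1, called the Vtn group here, followed at 69.3, 89.7, 111 and 118 CPM. The cranial mesenchyme-like cells were above the paraxial mesoderm-like cells in each of the 4 libraries although the ranges over libraries overlapped. The ranges of the paraxial mesoderm-like cells and the Vtn group overlapped too, and the order held in 3 of 4 libraries. Below the Vtn group came a gap: no library of the next group, led by Adamtsl1, Tagln and 1700018A04Rik (the Adamtsl1 group), reached the lowest library of the Vtn group. The Adamtsl1 group held 34.4, 52.2, 27.6 and 39.4 CPM. Zic1 was at 10 CPM or more in every library in 6 of the 21 groups and under 5 CPM in every library in 8.

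Zic4, the neighbour of Zic1, followed the same order at a lower count. Its level was 25.7, 34.1, 37.2 and 41.5 CPM in the cranial mesenchyme-like cells and 20.8, 17.5, 41.3 and 32.3 CPM in the paraxial mesoderm-like cells. These 2 ranges overlapped, and the cranial mesenchyme-like cells were higher in 3 of 4 libraries. The Vtn group, at 9.23, 14.4, 13.2 and 14.98 CPM, lay below both in every library without overlap. Only the 2 highest groups held 10 CPM or more in every library, and 15 of 21 groups were under 5 CPM in all of them. The ratio of Zic1 to Zic4 UMIs over all cells was 6.04, 5.85, 6.65 and 6.90 in the 4 libraries.

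Zic2 and Zic5 were spread more widely. Zic2, which acts in the forebrain midline and the neural crest, stood at 54.8, 61.5, 159 and 137 CPM in the cranial mesenchyme-like cells and at 48.6, 52.7, 136 and 128 CPM in the Vtn group. Its level was 26.4, 33.5, 81.1 and 70.5 CPM in the group led by 9130410C08Rik, Foxd2os and Dach2 (the Foxd2os group) and 28.6, 25.7, 66.0 and 56.6 CPM in the group led by Kcnmb2, Cyp26a1 and Grik1 (the Kcnmb2 group). The ranges of these 4 neighbours overlapped pairwise, but within single libraries the first was above the second in 4 of 4, and the second above the third in 4 of 4. Zic5 had the same 4 groups at the top. It stood at 70.0, 62.3, 84.9 and 92.7 CPM in the cranial mesenchyme-like cells and at 52.9, 50.8, 67.8 and 76.3 CPM in the Vtn group. Between the Vtn group and the Foxd2os group, which held 33.8, 33.6, 49.1 and 50.5 CPM of Zic5, the ranges did not overlap. Zic2 was at 10 CPM or more in every library in 8 groups and Zic5 in 7.

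**Figure D1:**
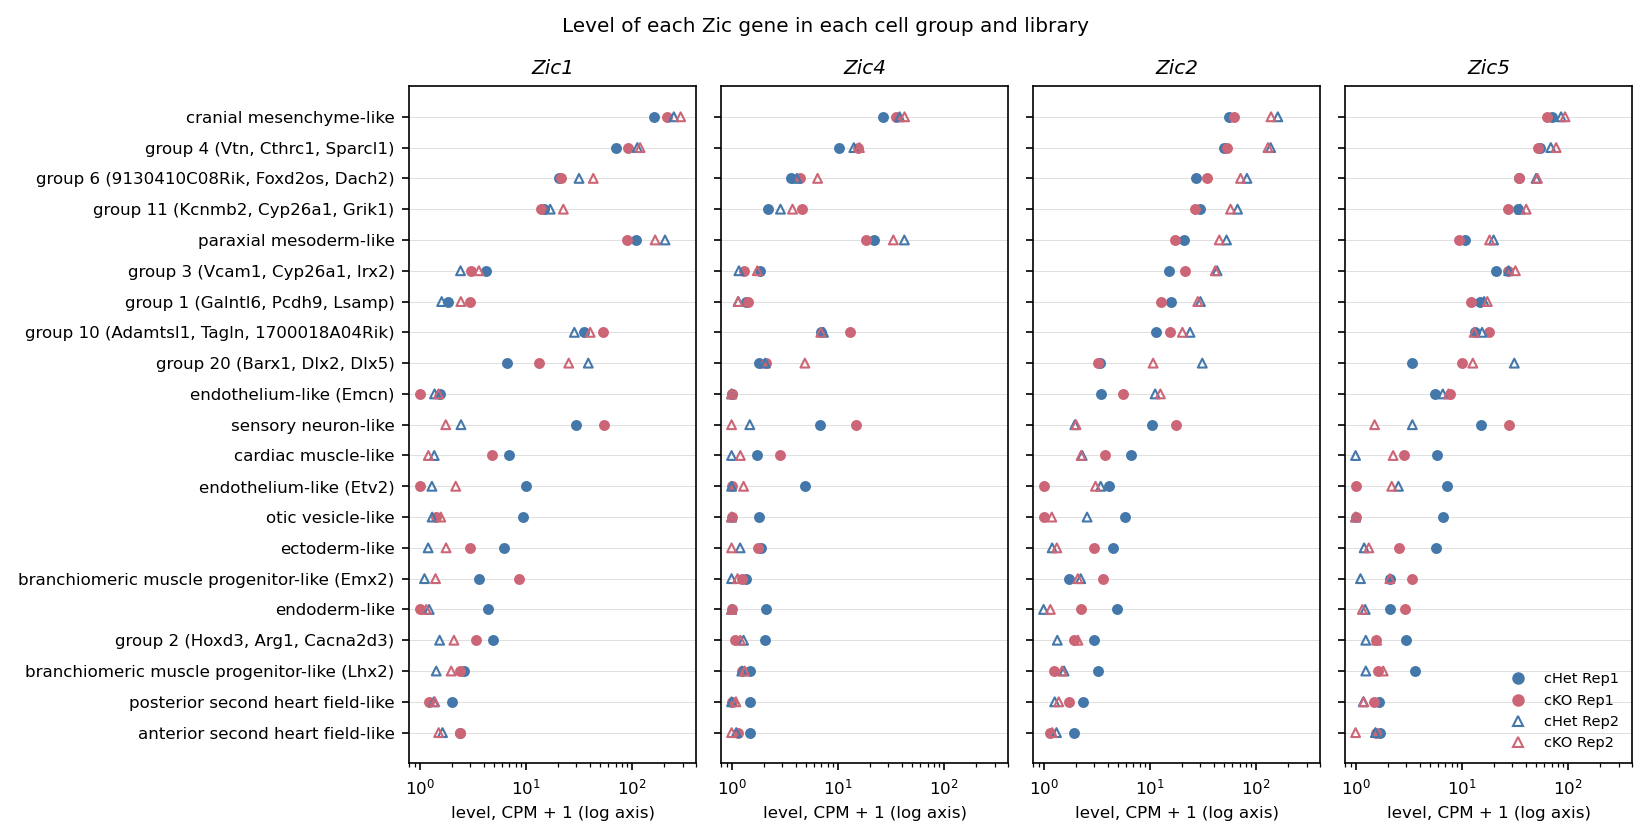
Level of each Zic gene (CPM + 1, log axis) in the 21 cell groups, 1 point per library (circles Rep1, triangles Rep2; blue cHet, red cKO). All 4 genes are highest in the cranial mesenchyme-like cells, and the groups led by Vcam1 and by Galntl6 hold Zic2 and Zic5 with Zic1 and Zic4 near the floor.

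The pairs parted in several groups. In the group led by Vcam1, Cyp26a1 and Irx2 (the Vcam1 group, 2771 cells) Zic2 stood between 14.2 and 42.0 CPM and Zic5 between 19.9 and 30.9 CPM, while Zic4 stayed between 0.172 and 0.835 CPM. The group led by Galntl6, Pcdh9 and Lsamp (the Galntl6 group, 3415 cells) held Zic2 between 11.8 and 28.9 CPM and Zic5 between 11.1 and 16.4 CPM. In the paraxial mesoderm-like cells the balance was the other way, with a ratio of Zic1 to Zic2 UMIs of 5.34, 5.40, 3.93 and 3.72, against 2.91, 3.42, 1.55 and 2.08 in the cranial mesenchyme-like cells and 1.43, 1.70, 0.816 and 0.919 in the Vtn group. The paraxial mesoderm-like cells had the highest of these ratios in each of the 4 libraries.

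The same groups stood out when cells were counted. For counts of cells, each cell was thinned to 8000 UMIs by random draws, and cells under 8000 UMIs were left out (74, 39, 115 and 211 cells). In the cranial mesenchyme-like cells 34.1%, 38.8%, 53.1% and 55.3% of cells held a UMI from both pairs, that is of Zic1 or Zic4 and of Zic2 or Zic5. In the Galntl6 group between 13.6% and 25.1% held Zic2 or Zic5 only, and between 0% and 0.522% held both pairs. In the Vcam1 group these ranges were 20.9% to 34.4% and 0.213% to 1.48%. In the paraxial mesoderm-like cells 22.6%, 20.6%, 23.4% and 23.0% held Zic1 or Zic4 only, more than the 3.77%, 5.88%, 12.7% and 10.2% that held Zic2 or Zic5 only. A UMI of all 4 members was found in 2.25%, 4.23%, 5.15% and 7.23% of the cranial mesenchyme-like cells.

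**Figure D2:**
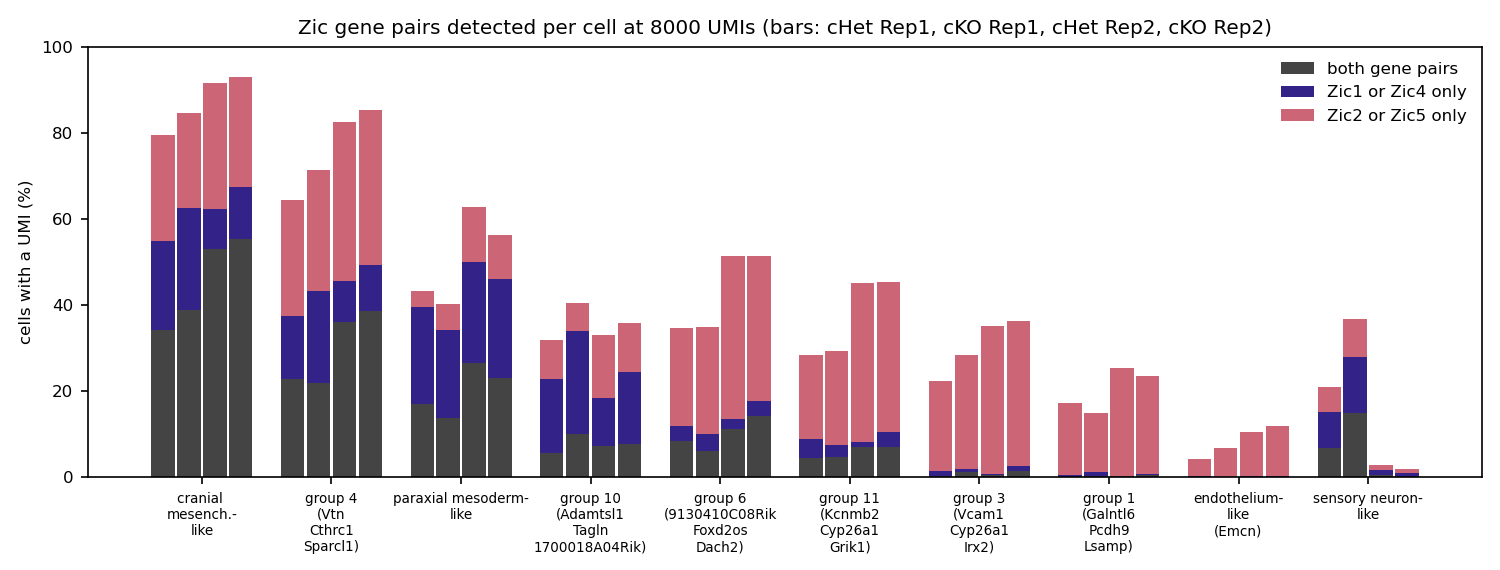
Percent of cells with a UMI of both gene pairs (grey), of Zic1 or Zic4 only (blue) and of Zic2 or Zic5 only (red) at 8000 UMIs per cell, 4 bars per group, cHet then cKO of Rep1 followed by cHet then cKO of Rep2. The cranial mesenchyme-like cells, the Vtn group and the paraxial mesoderm-like cells hold both pairs, while the Vcam1 and Galntl6 groups and the endothelium-like cells marked by Emcn hold almost only Zic2 or Zic5.

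The posterior second heart field-like cells, whose median depth of 20338.5 UMIs was close to the 22646 UMIs of the cranial mesenchyme-like cells, gave the floor. There at most 0.766% of cells in any library held a thinned UMI of Zic1 or of Zic2, against 53.3% to 65.9% for Zic1 and 32.3% to 71.8% for Zic2 in the cranial mesenchyme-like cells. Without thinning the shares in the cranial mesenchyme-like cells were 65.9% to 73.8% for Zic1 and 67.2% to 94.3% for Zic2. The summed levels in the posterior second heart field-like cells were 0.240 to 1.00 CPM for Zic1 and 0.272 to 1.34 CPM for Zic2. In most groups near the floor cHet Rep1, the library with the lowest share of its UMIs in cells, stood above the other libraries; free RNA was not removed, and its part in these low values was not tested.

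The endothelium-like cells marked by Emcn, Cdh5 and Cldn5 (1402 cells, 8 of 8 markers) held Zic2 at 2.45, 4.63, 10.2 and 11.6 CPM and Zic5 at 4.63, 6.72, 5.62 and 6.49 CPM. Zic1 there stayed between 0 and 0.545 CPM, and Zic4 had 0 UMIs in 29734094, which allows a level of up to 0.101 CPM. After thinning, 12, 16, 38 and 54 cells held Zic2 or Zic5 only, and no cell held both pairs. Cdh5, an endothelial cadherin, was found in 91.7%, 93.8%, 97.4% and 98.1% of the cells with Zic2 or Zic5 and in 89.6%, 88.2%, 97.9% and 99.0% of those without. Twist1, a mesenchymal factor, was found in 16.7%, 12.5%, 21.1% and 13.0% of cells with and in 15.8%, 16.3%, 20.1% and 18.9% of those without. For Prrx1, another mesenchymal factor, the shares were 0%, 6.25%, 2.63% and 3.7% against 2.01%, 1.81%, 2.99% and 3.43%. For the endothelial marker Pecam1 they were 66.7%, 50.0%, 89.5% and 81.5% against 62.8%, 59.3%, 87.7% and 89.5%. For Emcn they were 91.7%, 100%, 100% and 100% against 99.0%, 96.8%, 100% and 99.5%. The shares of cells with Zic2, between 1.29% and 7.79%, exceeded the 0.181% to 0.766% of the posterior second heart field-like cells in every library. In cHet Rep1, however, the 1.29% of the Emcn cells lay below other groups of low level, among them the endoderm-like cells at 3.49% and the cardiac muscle-like cells at 2.94%, so Zic2 was not above background in that library. In cKO Rep1, cHet Rep2 and cKO Rep2 the Emcn cells, at 3.38%, 7.53% and 7.79%, were above these 2 groups (at most 1.56%). For Zic5 in cHet Rep1 the Emcn cells, at 2.58%, also lay below the cardiac muscle-like cells at 5.15%. The endothelium-like cells led by Etv2 stood there at 4.62%. In cKO Rep1, cHet Rep2 and cKO Rep2 the Zic5 shares of the Emcn cells, 4.22%, 4.30% and 4.33%, were above both.

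The neuronal group stood apart between replicates. In the cells named sensory neuron-like from 10 of 10 markers, Zic1 reached 28.5 CPM (cHet) and 52.9 CPM (cKO) in Rep1 but only 1.45 and 0.765 CPM in Rep2, and Zic2, Zic4 and Zic5 were likewise lower in Rep2 in both genotypes. The 9 neural tube markers summed to 258 and 449 CPM in Rep1 and to 66.6 and 48.7 CPM in Rep2. In cKO Rep1, Sox2 was found in 77.9% of the 68 Zic1 cells and in 50.7% of the 221 others, and Neurod1, a factor of differentiating neurons, in 7.35% and 53.8%. In cHet Rep1 the differences were smaller, with Sox2 in 45.9% of the 37 Zic1 cells and 35.4% of the 240 others and Neurod1 in 27.0% and 54.2%, and Pax6, another neural tube marker, was less frequent in the Zic1 cells (10.8% against 20%). The 8 paraxial mesoderm markers, Pax3 and Pax7 among them, summed to 115 and 214 CPM in Rep1 and to 37.1 and 30.1 CPM in Rep2. Between libraries the Zic levels of this group moved with the sums of both marker lists, and the part of neural tube or paraxial mesoderm cells in them was not tested.

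The 2 replicates differed for Zic2 more than for its neighbour. In the cranial mesenchyme-like cells Zic2 was 2.91 times as high in Rep2 as in Rep1 in cHet and 2.23 times in cKO, whereas for Zic5 these ratios were 1.21 and 1.49. The ratio of Zic2 to Zic5 UMIs over all cells was 0.835 (cHet) and 0.955 (cKO) in Rep1, against 1.86 and 1.53 in Rep2. Zic1 in the cranial mesenchyme-like cells was 1.55 times as high in Rep2 as in Rep1 in cHet and 1.36 times in cKO. The kit, the embryos and the version of the counting software all differed between the replicates and cannot be told apart. Each genotype comparison below was therefore made within replicates, except in the fits without the block or with 1 library left out.

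Zic1 and Zic4 were found in the same cells more often than their shares within a group and library would give if they were independent. The number of cells with both genes was divided by the number expected from the shares within each group and library, summed over groups. For Zic1 with Zic4 this ratio was 1.97, 1.63, 1.68 and 1.57 (mean 1.71 ± 0.174 SD, n = 4 libraries). Zic2 with Zic5, the other neighbours, gave 1.27, 1.32, 1.26 and 1.16 (mean 1.25 ± 0.0647 SD). The 4 values for Zic1 with Zic4 lay above all 4 for Zic2 with Zic5. Among the pairs from different chromosomes, Zic4 with Zic2 gave a mean of 1.31, Zic4 with Zic5 1.22, Zic1 with Zic2 1.19 and Zic1 with Zic5 1.13, so the Zic2 with Zic5 ratio was not set apart from these. Without regard to groups the ratios were 4.69 to 6.78 for Zic1 with Zic4 and 2.42 to 2.95 for Zic2 with Zic5. Groups are not fully uniform, and the spread of cell states within a group enters these ratios. Within a group the ratio also cannot exceed 1 divided by the share of cells with the commoner gene. Its ceiling therefore differs between pairs and libraries.

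**Figure D3:**
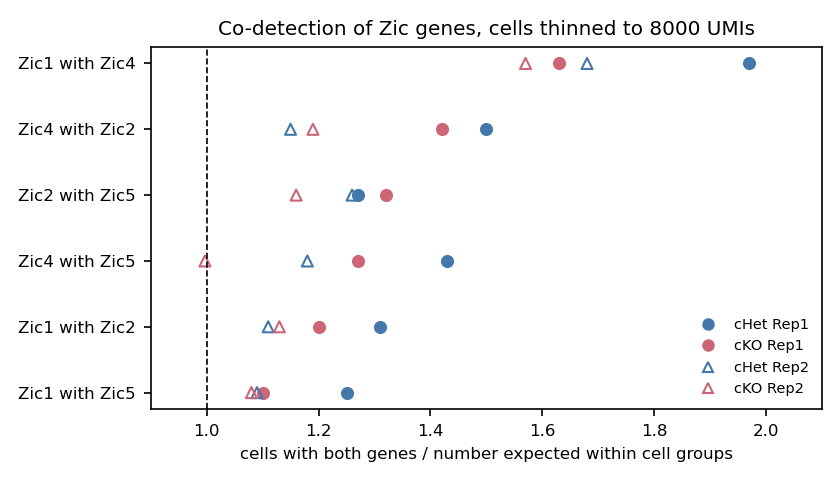
Cells with both genes of a pair divided by the number expected within cell groups, for all 6 pairs at 8000 UMIs per cell, 1 point per library (circles Rep1, triangles Rep2; blue cHet, red cKO). Zic1 with Zic4 lies between 1.57 and 1.97, to the right of every other pair, and the dashed line marks 1.

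Most cells with Zic4 held Zic1. Over all cells the share was 71.5%, 73.9%, 81.4% and 83.7%, while 18.8%, 24.8%, 21.7% and 23.7% of the cells with Zic1 held Zic4. In the cranial mesenchyme-like cells Zic1 was found in 89.4%, 88.4%, 93.1% and 93.6% of the cells with Zic4 and in 46.4%, 52.1%, 54.2% and 58.0% of those without. For Zic2 in the cells with Zic5 of the same group the shares were 33.5%, 38.6%, 76.8% and 66.9%, against 31.5%, 36.1%, 67.6% and 61.1% in the cells without Zic5. Zic2 was thus a little more common beside Zic5 in each library, and the Zic2 with Zic5 ratio of this group was 1.04, 1.04, 1.07 and 1.04. In the Foxd2os group it was 1.82, 1.85, 1.51 and 1.52. Zic1 with Zic2, from different chromosomes, was higher there in each library, at 2.62, 2.51, 1.91 and 1.86.

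Over the 21 groups each member's closest gene was its neighbour. Pearson's r of log2(CPM + 5), averaged over the 4 libraries, was 0.967 between Zic1 and Zic4 and 0.986 between Zic2 and Zic5, the highest r of each among 11304 genes with at least 10 CPM in some group. The groups share libraries and embryos, so r is given as a description. After Zic4, the genes most like Zic1 were Apod (0.940), Mkx (0.908), Nkd2 (0.880) and Cp (0.856). After Zic1, those most like Zic4 were Apod (0.927), Mkx (0.898), Armc4 (0.892) and Cp (0.892). Mkx encodes a homeodomain factor of tendon and its precursors. After Zic5, those most like Zic2 were Abca9 (0.967), Gm5089 (0.937), Tbc1d2b (0.909) and Fst (0.903), the last encoding follistatin, which binds activin. After Zic2, those most like Zic5 were Gm5089 (0.956), Abca9 (0.953), Gm40383 (0.897) and Zfp639 (0.883). Between members of different pairs r ran from 0.691 for Zic4 with Zic5 to 0.814 for Zic1 with Zic2.

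Zic1 and Zic4 were higher in the cKO cranial mesenchyme-like cells. Counts were summed per group and library and the genotypes compared with edgeR's quasi-likelihood test with the replicate as a block, and p-values were adjusted by Benjamini-Hochberg over all genes tested in the group. Values are log2 fold changes of cKO over cHet ± SE, with 2 libraries per genotype. Of 49 tests of a Zic gene in a group, 3 passed an adjusted p of 0.05, all with higher levels in cKO. Over all genes and groups 0.752% of tests passed, 0.432% with higher and 0.32% with lower levels in cKO.

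In the cranial mesenchyme-like cells normalised Zic1 was 179 CPM in cHet Rep1 and 237 CPM in cKO Rep1, and 217 CPM in cHet Rep2 and 256 CPM in cKO Rep2. Both cKO libraries lay above both cHet libraries, as they did for 6.8% of the genes tested there (8.7% in the Adamtsl1 group). The log2 fold change was 0.32 ± 0.058, a rise of 1.25-fold (edgeR adjusted p = 3.69e-05), and it was 0.40 within Rep1 and 0.24 within Rep2. Zic4 was 28.9 CPM in cHet Rep1 and 38.5 CPM in cKO Rep1, and 32.7 CPM in cHet Rep2 and 37.2 CPM in cKO Rep2, again without overlap. Its log2 fold change was 0.28 ± 0.079 (edgeR adjusted p = 0.0293), with 0.41 within Rep1 and 0.19 within Rep2. In that group 1.99% of 14541 genes passed, 1.14% with higher and 0.846% with lower levels in cKO. At 8000 UMIs per cell, Zic1 was found in 53.3% of cHet and 60.1% of cKO cells in Rep1 (95% exact binomial intervals, counting error only, 48.9% to 57.6% and 56.6% to 63.6%) and in 61.1% and 65.9% in Rep2 (57.9% to 64.4% and 63.2% to 68.6%). Zic4 was found in 16.0% of cHet and 22.2% of cKO cells in Rep1, and in 17.9% of cHet and 22.2% of cKO cells in Rep2. The log2 fold changes of both genes were larger in Rep1, where 60.0% of UMIs lay in kept cells in cHet and 86.1% in cKO. Free RNA was not removed, and its part in these differences was not tested.

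The Adamtsl1 group showed the third call. Zic1 there was 38.3 CPM in cHet Rep1 and 57.1 CPM in cKO Rep1, and 24.95 CPM in cHet Rep2 and 35.8 CPM in cKO Rep2. The replicates differed in level, so the genotypes overlapped across replicates while cKO was higher within each. The log2 fold change was 0.54 ± 0.11, or 1.46-fold (edgeR adjusted p = 0.000314), with 0.57 within Rep1 and 0.52 within Rep2. The 9 neural tube markers in this group summed to 2.21 and 4.78 CPM in cHet and cKO of Rep1. In Rep2 they summed to 0.345 and 0.581 CPM, and 4 of them were at 0 in every library. The 6 epithelium markers summed to 16.45 and 11.7 CPM in Rep1 and to 16.7 and 7.085 CPM in Rep2. For the 8 cardiac muscle markers the sums were 140 and 175 CPM in Rep1 and 573 and 329 CPM in Rep2. The part of such cells in the Zic1 value was not tested. In this group 1.36% of 12744 genes passed, 0.643% with higher and 0.714% with lower levels in cKO. Zic4 in the Adamtsl1 group was higher in cKO Rep1 (13.2 against 6.56 CPM) but not in Rep2 (5.39 against 5.72 CPM), and did not pass (adjusted p = 0.787 in edgeR).

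**Figure D4:**
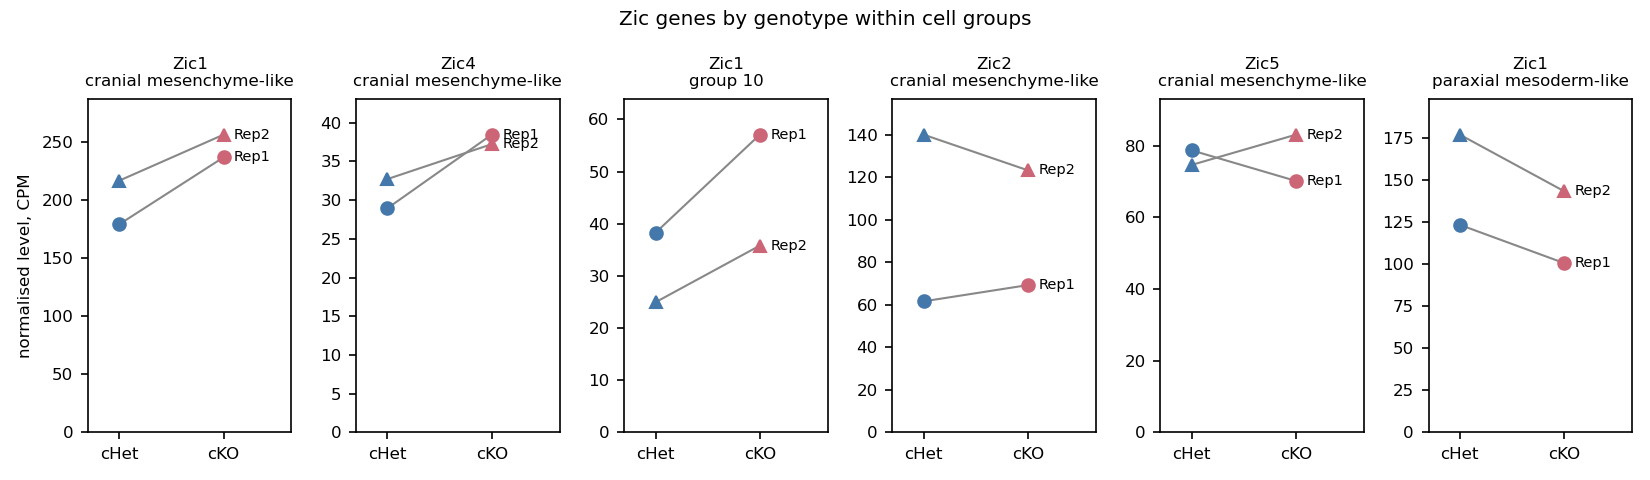
Normalised level (CPM, axes from 0) of 6 gene and group combinations in cHet and cKO, lines joining the libraries of 1 replicate (circles Rep1, triangles Rep2). Zic1 and Zic4 in the cranial mesenchyme-like cells and Zic1 in the Adamtsl1 group (group 10) go up in both replicates, Zic2 and Zic5 in the cranial mesenchyme-like cells go opposite ways, and Zic1 in the paraxial mesoderm-like cells goes down in both.

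These calls depended on the settings. Without the block none of the 3 passed (adjusted p = 1 in edgeR for each), nor did any other gene tested in either group, where 64 genes each had an unadjusted p under 0.05. Leaving out any 1 of the 4 libraries also removes the block. Zic1 in the cranial mesenchyme-like cells then lay between 0.18 without cHet Rep1 and 0.47 without cHet Rep2. In the Adamtsl1 group Zic1 lay between 0.19 without cKO Rep1 and 0.89 without cHet Rep1. With DESeq2 and the block none of the Zic tests passed. Zic1 in the cranial mesenchyme-like cells had a DESeq2 adjusted p of 0.0986, and 20 of 14541 genes passed there. Letting the Zic genes take part in the clustering changed the cells of the cranial mesenchyme-like group and lowered its Zic1 log2 fold change to 0.22 (edgeR adjusted p = 0.221), while Zic1 in the Adamtsl1 group still passed (0.57, edgeR adjusted p = 0.000484). That call was lost when cells were thinned to 8000 UMIs (0.54, edgeR adjusted p = 0.482), where 8 of 10951 genes passed. Zic4 in the cranial mesenchyme-like cells was lost with thinning, with doublets kept and with the Zic genes in the clustering (edgeR adjusted p = 0.0955, 0.185 and 0.491). Neural tube markers in the cranial mesenchyme-like cells summed to 4.16, 5.41, 2.15 and 3.06 CPM over 9 markers, slightly higher in cKO in both replicates, and 2 of the 9 were at 0 in every library; their part in the Zic values was not tested.

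Zic2 and Zic5 passed in no group. In the cranial mesenchyme-like cells normalised Zic2 was 61.7 CPM in cHet Rep1 and 69.3 CPM in cKO Rep1 but 140 CPM in cHet Rep2 and 123 CPM in cKO Rep2. Its log2 fold change was −0.04 ± 0.065, with 0.17 within Rep1 and −0.18 within Rep2. Zic5 was 78.7 against 70.2 CPM in Rep1 and 74.7 against 83.1 CPM in Rep2, a log2 fold change of 0.01 ± 0.067. Whether Zic1 and Zic2 differed in their response was not tested. Zic2 was tested in 14 groups and Zic5 in 11, and in 7 and 8 of these the replicates went opposite ways.

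The paraxial mesoderm-like cells, second in Zic1, went the other way without passing. Zic1 there was 124 against 101 CPM in Rep1 and 177 against 144 CPM in Rep2, a log2 fold change of −0.30 ± 0.11 (edgeR adjusted p = 0.462), in a group where 0.368% of 11145 genes passed. The log2 fold change was −0.29 within Rep1 and −0.30 within Rep2. Fits without the block gave −0.01 without cHet Rep2, −0.07 without cKO Rep1, −0.53 without cHet Rep1 and −0.59 without cKO Rep2. Such fits compare libraries across replicates. In this group Zic1 was 1.9 times as high in Rep2 as in Rep1 in cHet and 1.85 times in cKO. All 4 members were lower in cKO in both replicates of this group, with log2 fold changes of −0.32 for Zic4, −0.25 for Zic2 and −0.15 for Zic5, none of which passed. The share of all genes lower in both replicates was not counted for this group, and over all groups it was 25.5%. The difference in Zic1 response between the paraxial mesoderm-like and the cranial mesenchyme-like cells was −0.60 on the log2 scale and did not pass (edgeR adjusted p = 0.581). Of 210 pairs of groups, 1 passed this test of a difference in response for Zic1 and 0 for the other members. That pair was paraxial mesoderm-like against sensory neuron-like, where 0.201% of all genes passed. Over all genes and pairs 0.0485% passed. At an unadjusted p under 0.05 in edgeR, Zic2 had 31 pairs, Zic1 29, Zic5 24 and Zic4 11. The 210 pairs reuse the same groups, so these are not counts of separate tests. The share of all genes at that unadjusted level was not counted, so no excess can be read from these counts. In the Vtn group Zic1 was 78.7 against 101 CPM in Rep1 and 97.1 against 106 CPM in Rep2, and 0.23 ± 0.069 did not pass (edgeR adjusted p = 0.198), beside 0.73% of 13836 genes that did. Leaving out 1 library gave 0.08 (without cHet Rep1) to 0.40 (without cHet Rep2).

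Across all tested groups Zic1 was higher in cKO in both replicates in 6 of 16, lower in both in 3 and mixed in 7. Zic4 was higher in both in 4 of 8 and lower in both in 1, Zic2 higher in 2 of 14 and lower in 5, and Zic5 higher in 2 of 11 and lower in 1. The 4 members together were higher in both in 14 of 49 and lower in both in 10, against 26.0% and 25.5% of the tests over all genes and groups.

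**Figure D5:**
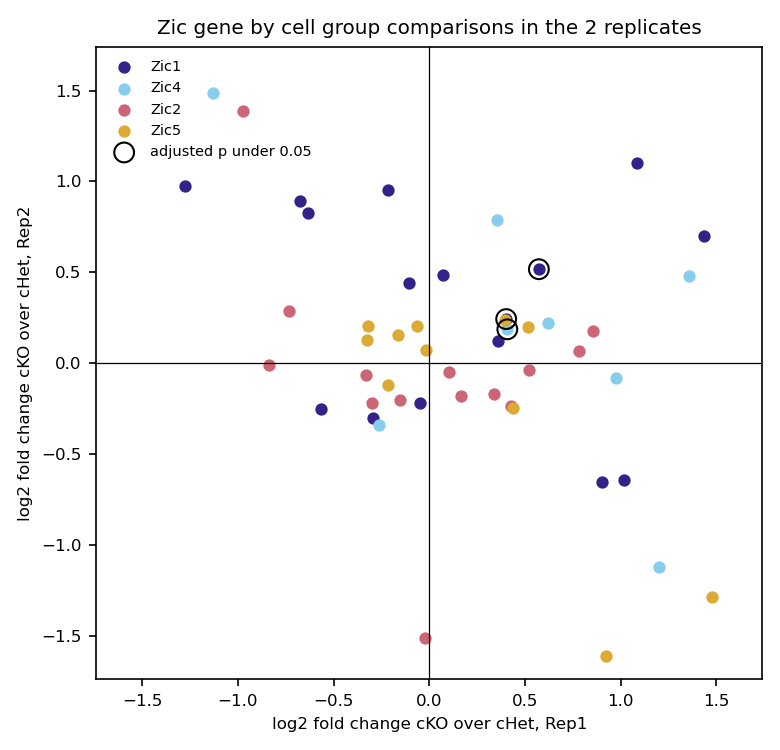
Log2 fold change of cKO over cHet in Rep1 (x axis) and Rep2 (y axis) for the 49 tested combinations of a Zic gene and a cell group, coloured by gene, with rings around the 3 that passed an adjusted p of 0.05. The ringed points lie at the upper right, where the Zic1 point of the cranial mesenchyme-like cells (0.40 and 0.24) is hidden by a Zic5 point of the Vcam1 group that did not pass, and 25 of the 49 points lie where the replicates have opposite signs.

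Summed over all cells, no Zic gene passed. Zic1 was 30.3 against 54.1 CPM in Rep1 and 38.1 against 45.2 CPM in Rep2, a log2 fold change of 0.54 ± 0.13 (edgeR adjusted p = 0.658), and Zic4 gave 0.53, Zic5 0.27 and Zic2 0.22. For Zic2 the replicates went opposite ways (0.59 in Rep1 and −0.13 in Rep2). Without cKO Rep1, in a fit with no block, Zic4 was 0.29 and Zic5 0.17, and Zic2 was −0.34 without cHet Rep1 and −0.13 without cKO Rep2. None of the 20126 genes tested passed in edgeR (0% of them), 1139 had an unadjusted p under 0.05, and 63 passed with DESeq2. The cranial mesenchyme-like cells made up 9.15% of the cells in cHet Rep1 and 12.5% in cKO Rep1, and 9.68% and 10.2% in Rep2. The part of this mix of cells in the sums over all cells was not tested. In such sums more cells of a type and more RNA per cell cannot be told apart.

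Relatives and partners of the Zic genes were read in the same groups. Of 7 GLI relatives tested in the cranial mesenchyme-like cells, 1 passed as higher in cKO and 1 as lower, beside 1.14% and 0.846% of all genes. The higher one is not reported here. The lower one, Glis2, a related zinc finger factor, fell by 0.49 ± 0.12 (edgeR adjusted p = 0.00775). It went from 13.7 to 10.4 CPM in Rep1 and from 14.9 to 10.1 CPM in Rep2. Gli2 and Gli3, the main Hedgehog effectors, were at −0.07 and −0.04 and did not pass.

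Of 10 Hedgehog genes, 9 were tested in the cranial mesenchyme-like cells and 1 passed, beside 1.99% of all genes there. Gas1, a co-receptor for Hedgehog ligands, rose by 0.37 ± 0.059 (edgeR adjusted p = 1.08e-06), from 215 to 298 CPM in Rep1 and from 237 to 285 CPM in Rep2. Ptch1, a receptor and target of the pathway, was at −0.21 without passing. In the Adamtsl1 group Boc, another co-receptor, fell by 1.07 (edgeR adjusted p = 0.045), 1 of 9 tested, and Gli3 fell by 0.32 (edgeR adjusted p = 0.0458), 1 of 6 GLI relatives tested, beside 1.36% of all genes in that group, 0.714% with lower levels.

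Of 15 neural crest genes, 10 were tested in the cranial mesenchyme-like cells, 3 passed as higher in cKO and 1 as lower, beside 1.14% and 0.846% of all genes. The homeobox genes Msx1 and Msx2 rose by 0.28 ± 0.061 and 0.55 ± 0.071 (edgeR adjusted p = 0.000851 and 2.86e-10), and Snai2, a repressor active in migrating crest, rose by 0.33 ± 0.073 (edgeR adjusted p = 0.00166). Pax3 was the lower one, at −1.96 ± 0.36 (edgeR adjusted p = 3.28e-05), from 1.80 to 1.27 CPM in Rep1 and from 3.58 to 0.330 CPM in Rep2, so that Rep2 carried most of it. Pax3 is also a paraxial mesoderm marker, and the 8 markers of that type summed to 17.7 and 13.7 CPM in cHet and cKO of Rep1 and to 25.1 and 15.7 CPM in Rep2 of this group; their part in the Pax3 value was not tested. Msx1 and Msx2 were also among the markers that named the group. Of 9 neural tube genes 3 were tested and 0 passed. Of 12 head mesoderm genes, all tested, Alx1 rose by 0.49 ± 0.14 and Foxc2 fell by 0.54 (edgeR adjusted p = 0.0411 and 0.0441). In the Adamtsl1 group Prrx2 fell by 0.29 (edgeR adjusted p = 0.0123), 1 of 11 head mesoderm genes tested. Without the replicate block none of the genes of these lists passed in any group.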

How the data were processed

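Living GFP+ cells of E9.5 pharyngeal region and heart were profiled in 4 libraries, 2 per genotype, by droplet 3′ sequencing. The authors deposited UMI counts per gene and cell barcode, not normalised, made with Cell Ranger on mm10. The file headers name version 7.0.1 for Rep1 and 8.0.1 for Rep2, while the submitters' processing notes name 8.0.1. The deposited counts summed to between 179454146 and 234726019 UMIs per library. Barcodes with at least 3000 genes, at most 10% mitochondrial and 5% hemoglobin UMIs were kept, and the barcodes with the highest Scrublet scores, at the doublet rate of each kit, were removed as doublets (4.03% to 5.78%), since Scrublet's own threshold marked only 0.015% to 1.74%. Cells were clustered on 30 components of 2000 variable genes, chosen with scanpy 1.11.5 and without the 4 Zic genes. The components were first corrected for the replicate with a function written after the Harmony method. A graph of 20 neighbours was then split by the Leiden method at a resolution of 0.8. A group was named "-like" with at least 3 detected markers and 50% of a type's markers; these thresholds were set after the clusters were first seen. Free RNA was not removed.

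Counts were summed per group and library and tested with edgeR 4.0.16 (TMM, filterByExpr, quasi-likelihood, replicate as a block, Benjamini-Hochberg over all genes of a group). Differences in response between groups were tested in 1 fit over all groups. DESeq2 1.42.0 was an alternative, as were no block, no filter on low counts, thinning, doublets kept, the Zic genes used in clustering, and leaving out each library. The replicate number pairs the libraries because the labels tie it to the kit, and libraries of 1 number deviated together in every group (correlations from 0.627 to 0.828). On simulated counts with 200 genes changed by 2-fold, the test recovered 195 in the cranial mesenchyme-like cells. The test of a difference in response recovered 74 of 200 over 15633 genes. The latter simulation held only a few of the 21 groups and no replicate effect. Its recovery therefore need not hold for the fit over all groups. With the block, the p-values weigh the genotype difference against its disagreement between the 2 replicates, with variances partly shared over genes. The block takes up the shared difference between replicates. The members and gene lists were chosen with earlier results of these data known. Named genes were the 4 members, Kmt2d as a check, list genes that passed where a member was called or highest, with a few that did not pass for contrast, and the 5 genes most like each member. Results for some genes are not reported here.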

Additional observations from a re-analysis of the deposited data

Results flagged for a closer look

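The response of Zic1 to genotype differed between 2 cell groups by a test of the difference itself. The log2 fold change of cKO over cHet in the paraxial mesoderm-like cells minus that in the sensory neuron-like cells was −1.15 (edgeR adjusted p = 0.0488), and 0.201% of the 16880 genes passed in that pair of groups. It was 1 of 210 pairs of groups tested for each member, and 0.0485% of all tests over all genes and pairs passed. In the sensory neuron-like cells Zic1 had 185 and 401 UMIs in cHet and cKO of Rep1 but 6 and 3 in Rep2, where its direction was the opposite, so this difference rests on Rep1. In that replicate the 9 neural tube markers also summed higher in cKO, at 449 against 258 CPM, as did the 8 paraxial mesoderm markers, at 214 against 115 CPM, and their part in the difference was not tested.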

How the results depend on the processing

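The calls depended on the replicate block and on other settings. With no replicate block Zic1 in the cranial mesenchyme-like cells stayed at 0.32, Zic4 at 0.29 and Zic1 in the Adamtsl1 group at 0.56 (log2 fold changes), none passed, and calls among the Zic genes went from 3 to 0, as did those of the 5 lists (from 4, 7, 10, 1 and 14 to 0). With DESeq2 these values were 0.32, 0.30 and 0.55 with 0 calls. Thinned to 8000 UMIs, Zic4 was 0.36 and Zic1 in the Adamtsl1 group 0.54, neither passing, with 1 call. With the Zic genes used in clustering, Zic1 was 0.22 and Zic4 0.21 in the cranial mesenchyme-like cells, with 1 call, and their mean levels there were 321 and 50.2 CPM in place of 226 and 34.6. With doublets kept Zic4 was 0.26 and no longer passed, and the 5 calls were all of Zic1. Of these, 3 were in groups without a call in the main fit (Galntl6, sensory neuron-like and the branchiomeric muscle progenitor-like group led by Lhx2). With all genes of at least 1 UMI, Zic1 over all cells passed at 0.54 (edgeR adjusted p = 0.0303), where 91 of 26827 genes passed. Calls among the Zic genes in groups were then 4, the added one being Zic1 in the sensory neuron-like cells (0.82, edgeR adjusted p = 0.0146). Calls of the neural crest, neural tube and head mesoderm lists were 23, 4 and 25. The share of all genes over all groups was not counted in this setting. Zic5 in the cranial mesenchyme-like cells changed sign with no block (−0.00080), with the Zic genes in clustering (−0.0093) and with doublets kept (−0.025). Leaving out 1 library gave 0.18 to 0.47 for Zic1, 0.20 to 0.39 for Zic4, −0.55 to 0.65 for Zic2 and −0.13 to 0.11 for Zic5 in the cranial mesenchyme-like cells, 0.19 to 0.89 for Zic1 in the Adamtsl1 group, −0.34 to 0.81 for Zic2 over all cells, and 0 calls each. At 5000 UMIs per cell the Zic2 with Zic5 co-detection ratio was 1.32 in place of 1.25. Over all genes the calls moved as well. In the main fit 289 genes passed in the cranial mesenchyme-like cells and 173 in the Adamtsl1 group. These were 20 and 6 with DESeq2 and 142 and 8 with thinning. They were 57 and 161 with the Zic genes in clustering, and 118 and 159 with doublets kept. Between 10951 and 14639 genes were tested per group in these fits. With all genes of at least 1 UMI, 317 of 22450 genes passed in the cranial mesenchyme-like cells and 165 of 20652 in the Adamtsl1 group. Causes of these shifts were not tested. Of 194 alternatives 131 kept direction and side of the threshold or moved by less than the spread between libraries. Some of these could not have come out otherwise. Leaving out 1 library cannot move a mean level or mean co-detection ratio by as much as that spread. The choice of genes for clustering leaves the sums over all cells unchanged. Power for changes smaller than 2-fold was not measured.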
